A study of Homo sapiens with 6 samples.

Results

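The mRNAs of 6 peroxiredoxins (*PRDX1* to *PRDX6*), thioredoxin (*TXN*), 2 superoxide dismutases (*SOD1* and *SOD2*) and catalase (*CAT*) were followed in an RNA immunoprecipitation sequencing (RIP-seq) experiment on 786-O cells. The genes were chosen by name, as the core enzymes that remove superoxide and hydrogen peroxide, with earlier results of these data known. All 10 were rows of the count table, of 20020 rows in all. 786-O is a long-established line from a human clear cell renal carcinoma. The groups were 3 libraries of RNA recovered with IGF2BP2, called RIP below, and 3 libraries of input RNA. The labels name no genotype change, treatment or time point for either group. IGF2BP2 is a cytoplasmic RNA-binding protein described as a reader of N6-methyladenosine. The question put to these mRNAs was whether each was higher or lower in RIP than in input relative to the average transcript, not as a share of all reads. No control pull-down was analysed here, so each value is RIP over input and includes RNA that any antibody or bead would hold.

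Superoxide leaks from the respiratory chain and from oxidases and is turned into hydrogen peroxide by the superoxide dismutases, SOD1 with copper and zinc in the cytosol and SOD2 with manganese in the mitochondrial matrix. Peroxide is then reduced by peroxiredoxins, whose reactive cysteine is oxidised and in most members is restored by thioredoxin, while catalase breaks peroxide down inside peroxisomes. PRDX1 and PRDX2 work mainly in the cytosol, PRDX3 in mitochondria, PRDX4 in the endoplasmic reticulum, PRDX5 in several compartments, and PRDX6, which uses glutathione in place of thioredoxin, in the cytosol.

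The mRNAs of thioredoxin and of all 6 peroxiredoxins were lower in RIP than in input, and so was *SOD1*, whereas *SOD2* and *CAT* lay close to the average transcript. Folds ran from 7.90-fold lower for *TXN* to 1.65-fold lower for *SOD1*. Of the 10 mRNAs 8 were depleted, where 42.0% of the 12856 tested genes were depleted, and 2 were enriched, where 40.7% were (edgeR quasi-likelihood test, Benjamini-Hochberg adjusted p under 0.05 over all tested genes). With library size alone for scaling, enriched genes were 38.9% of all calls instead of 49.2%. A decrease of 2-fold or more was seen for 6 of the 10, against 19.7% of the tested genes. In all 10 the RIP libraries lay beyond all inputs, which held for 83.1% of the tested genes, so that separation says little about these mRNAs. The median log2 fold change of the 10 was -1.24, against -0.02 over all tested genes.

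All 10 passed the low-count filter, and no value rested on few reads, with 519 to 16048 reads per gene and library. Libraries held 33872621 to 44045835 reads in RIP and 25773819 to 27226405 in input. The transcript of the pulled-down protein, *IGF2BP2*, averaged 263 ± 4.09 CPM in RIP and 121 ± 2.97 CPM in input (SD, n = 3 each), where CPM are read counts scaled to library size after TMM normalisation. Sums over marker lists in this paragraph are instead CPM by library total alone, without TMM, and are not on the scale of the single-gene means. On that scale the 10 renal carcinoma epithelium markers summed to 4506 to 4862 CPM in RIP and 5509 to 5697 in input, but unevenly. The kidney lineage factors *PAX8* and *PAX2* were well detected (*PAX8* at 691 ± 26.4 CPM in RIP, against 416 ± 8.16 in input). On the same list *CA9* averaged 1.64 CPM in RIP, against 7.66 in input, *EPCAM* 1.05 against 1.99 and *NDUFA4L2* 0.448 against 0.535. The 10 immune and blood markers together reached at most 0.660 CPM in a RIP library and 1.29 in an input. The 6 endothelial markers summed to 6.45 to 8.06 CPM in RIP and 6.36 to 10.7 in input, and the 6 fibroblast markers to 9.57 to 13.8 CPM in RIP and 10.2 to 15.4 in input, with none of these 2 lists' markers at 0 in every library. Separate cultures are not stated for the replicates, and p-values therefore cover only the spread of these 6 libraries, possibly a technical one.

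The 10 genes lie on 8 chromosomes and share no locus (GRCh38.p14, spans from RefSeq). *PRDX1* (chromosome 1, 45511051 to 45522890) and *PRDX6* (chromosome 1, 173477335 to 173488815) are on one chromosome, as are *PRDX5* (chromosome 11, 64318121 to 64321811) and *CAT* (chromosome 11, 34438934 to 34472060). The others are *PRDX2* (chromosome 19, 12796823 to 12801800), *PRDX3* (chromosome 10, 119167720 to 119178812), *PRDX4* (chromosome X, 23667493 to 23686397), *TXN* (chromosome 9, 110243810 to 110256507), *SOD1* (chromosome 21, 31659693 to 31668931) and *SOD2* (chromosome 6, 159669069 to 159762281). Some overlap other genes of the count table: *PRDX1* overlaps *MMACHC* by 2332 nt of its span, *PRDX5* overlaps *TRMT112* by 476 nt, and the long span of *SOD2* contains all 29627 nt of *WTAP*, a component of the N6-methyladenosine methyltransferase complex encoded on the opposite strand. *SOD2* also overlaps *ACAT2* by 237 nt. Whether the counting used strand is not given in the sources used here, and reads in these stretches cannot be assigned with certainty. The log2 fold change of *MMACHC* was 1.22 and that of *TRMT112* was -2.82, both far from the values of their neighbours below, while of the genes that overlap *SOD2*, *WTAP* stood at 0.18, near *SOD2*, and *ACAT2* at -0.79, far below it. RefSeq also lists 23 pseudogenes named after 8 of the 10 genes, none of which is a row of the count table, and the handling of reads that align to several places is not given in the sources used here.

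The 5′ ends of 6 of these mRNAs are shown because they are the part of the recovered RNA for which a sequence was at hand, and because mRNAs that start with a C followed by a run of pyrimidines form a known class whose translation depends on that start. Each line gives 15 bases before the annotated start in lower case and the first 15 transcribed bases in capitals, from RefSeq on GRCh38.p14. RefSeq promoter entries matched 7 of the 10 genes (*PRDX2*, *PRDX3*, *PRDX4*, *PRDX5*, *TXN*, *SOD2*, *CAT*), and *SOD2* is left out for its 4 annotated starts.
*TXN*, chr9:110256493-110256522, minus strand: caagcagcgagtcttGAAGCTCTGTTTGGT
*PRDX4*, chrX:23667478-23667507, plus strand: gttcgcgcgggcgtcGTGCACGCGGTTGTA
*PRDX2*, chr19:12801786-12801815, minus strand: gcccagggctcacttGGCGCTGAGAACGCG
*PRDX5*, outer start, chr11:64318106-64318135, plus strand: gcggcccaggcccgcCTTCCGCAGGGTGTC
*PRDX5*, inner start, chr11:64318271-64318300, plus strand: gtggggccggcggtcAGTCTGCGGCAGCGG
*PRDX3*, chr10:119178798-119178827, minus strand: gtctctgcccgccccGTGGCGCCCGAGTGC
*CAT*, chr11:34438919-34438948, plus strand: ccacggactcggggcAACAGGCAGATTTGC
The search was for a C at the first transcribed base followed by 4 bases that are each C or T, on the transcribed strand. Only the outer start of *PRDX5* matched among the 11 starts of the 7 genes, and 4.06% of the 34943 starts in the table did. The 3 mRNAs with the lowest fold changes, *TXN*, *PRDX4* and *PRDX2*, start with G in this annotation, and so does *PRDX3*. A match or its absence at an annotated start is a description and does not show where transcription began in these cells.

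*TXN*, *PRDX4* and *PRDX2* had the lowest fold changes of the group. *TXN*, the small protein that passes electrons from thioredoxin reductase to peroxiredoxins, had 27.0, 31.4 and 29.4 CPM in RIP libraries 1, 2 and 3, against 224, 239 and 232 CPM in input libraries 1, 2 and 3. Its level was thus 7.90-fold lower in RIP (log2 fold change -2.98, SE 0.069, edgeR adjusted p = 1.66e-24), and only 0.521% of the tested genes had a lower fold change. *PRDX4*, the secretory pathway peroxiredoxin, had 17.0, 18.4 and 16.6 CPM in RIP, against 129, 116 and 114 CPM in input, a log2 fold change of -2.78 (SE 0.072, edgeR adjusted p = 5.92e-23). *PRDX2*, an abundant cytosolic peroxiredoxin, had 15.7, 13.9 and 17.0 CPM in RIP, against 103, 105 and 104 CPM in input, a log2 fold change of -2.75 (SE 0.082, edgeR adjusted p = 8.95e-23). For all 3 genes the highest RIP library stayed far below the lowest input. The fold changes of *PRDX4* and *PRDX2* differed by less than the SE of either.

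**Figure D1:**
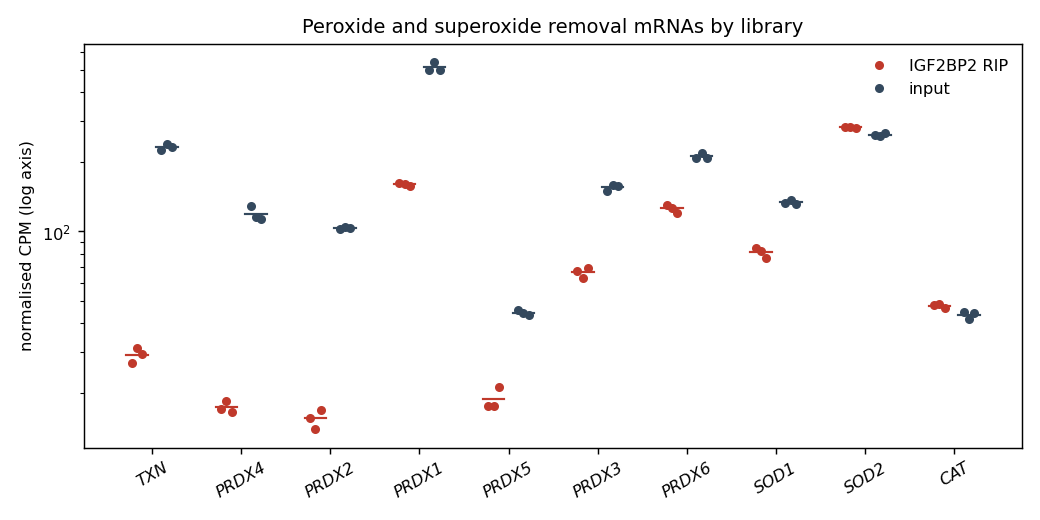
Normalised CPM (log axis) of the 10 mRNAs, ordered from the lowest to the highest fold change, with the 3 RIP libraries left (red), the 3 inputs right (dark) and a bar at each mean. RIP and input libraries of *TXN* are 7.90-fold apart on average, while those of *SOD2* and *CAT* nearly touch.

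*PRDX1*, the close cytosolic relative of *PRDX2* and the highest of the 6 peroxiredoxins per length, was also depleted, with a fold change nearer to 0. It had 162, 160.3 and 158 CPM in RIP, against 499.8, 539 and 501 CPM in input, and was 3.21-fold lower (log2 fold change -1.68, SE 0.037, edgeR adjusted p = 6.89e-22). Per length, the ratio of *PRDX1* to *PRDX2* FPKM (reads scaled by gene length and library total) was therefore 5.13 to 6.34 in RIP libraries and 2.66 to 2.83 in inputs, without overlap. *PRDX1* made up 39.2% to 40.1% of all reads of the 6 peroxiredoxins in RIP and 44.0% to 45.6% in input. These ratios were picked after the values were known and carry no test.

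*PRDX5* and *PRDX3* came next in the order of fold change. *PRDX3*, which is confined to mitochondria, had 67.2, 62.9 and 69.6 CPM in RIP, against 149.8, 159.6 and 157 CPM in input, 2.34-fold lower (log2 fold change -1.22, SE 0.051, edgeR adjusted p = 4.76e-18). *PRDX5*, an atypical peroxiredoxin that forms its disulphide within 1 chain, had 17.6, 17.5 and 21.2 CPM in RIP, against 45.8, 44.3 and 43.6 CPM in input, 2.38-fold lower (log2 fold change -1.25, SE 0.094, edgeR adjusted p = 1.01e-14). RIP library 3 stood above the other RIP libraries for *PRDX5*, but far below the lowest input. *PRDX3* and *PRDX5* differed in fold change by less than the SE of either.

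*PRDX6* and *SOD1* were the least depleted of the 8. *PRDX6*, the peroxiredoxin with a single reactive cysteine, had 131, 126 and 120.3 CPM in RIP, against 208, 218 and 207 CPM in input, a log2 fold change of -0.75 (SE 0.041, edgeR adjusted p = 1.54e-14). *SOD1* had 84.8, 82.1 and 76.9 CPM in RIP, against 133, 137 and 132 CPM in input, a log2 fold change of -0.72 (SE 0.045, edgeR adjusted p = 1.37e-13). The RIP libraries of both lay well below the inputs, and the fold changes differed by less than the SE of either.

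*SOD2* and *CAT* were the only members called enriched, and by little. *SOD2*, the manganese enzyme of mitochondria, had 284, 283 and 281 CPM in RIP, against 260.4, 259 and 267 CPM in input, a 1.08-fold difference (log2 fold change 0.11, SE 0.015, edgeR adjusted p = 0.0104). *CAT* had 48.2, 48.7 and 46.6 CPM in RIP, against 44.9, 41.9 and 44.3 CPM in input, a 1.09-fold difference (log2 fold change 0.13, SE 0.036, edgeR adjusted p = 0.0262). The groups did not overlap for either gene but were close. Both directions depended on the scale: with library size alone the log2 fold changes were -0.13 for *SOD2*, now called depleted (edgeR adjusted p = 0.00254), and -0.11 for *CAT*, which did not pass (0.0536). With limma on log2(FPKM + 1) both were called depleted (adjusted p = 0.0110 for *SOD2* and 0.0293 for *CAT*), and with upper-quartile scaling neither passed the test. The median gene itself stood at -0.26 with library size alone and at -0.11 with upper-quartile scaling. Relative to that median *SOD2* was at 0.13 and *CAT* at 0.15 under every scaling tried. A change of scaling moves all genes by nearly the same amount, so this constancy was fixed in advance and is no check of the calls. The call of *CAT* was also lost without RIP replicate 1 (edgeR adjusted p = 0.0641) and without input replicate 2 (0.124).

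Short transcripts as a class were low in RIP, and 8 of these mRNAs are short. By the lengths behind the deposited FPKM values, *TXN* is 737 nt long, *PRDX5* 860, *SOD1* 922, *PRDX2* 928, *PRDX4* 1312, *PRDX3* 1553, *PRDX1* 1682 and *PRDX6* 1690, and *CAT* is 2291. Of the 1251 tested genes within 737 to 1690 nt, 72.6% were depleted and 13.5% enriched, with a median log2 fold change of -1.17. Against that median, *TXN*, *PRDX4*, *PRDX2* and *PRDX1* were lower, *PRDX3* and *PRDX5* were close to it, and *PRDX6* and *SOD1* were higher. *CAT* stood above the median of -0.57 of the 2141 genes within 20% of its length, of which 22.2% were enriched and 59.9% depleted. The length given for *SOD2*, 17659 nt, is longer than that of 99.3% of the tested genes, and joins the exons of its several isoforms if the lengths were made that way, which is not given in the sources used here. *SOD2* stood below the median of 0.48 of the 204 genes within 20% of that length.

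**Figure D2:**
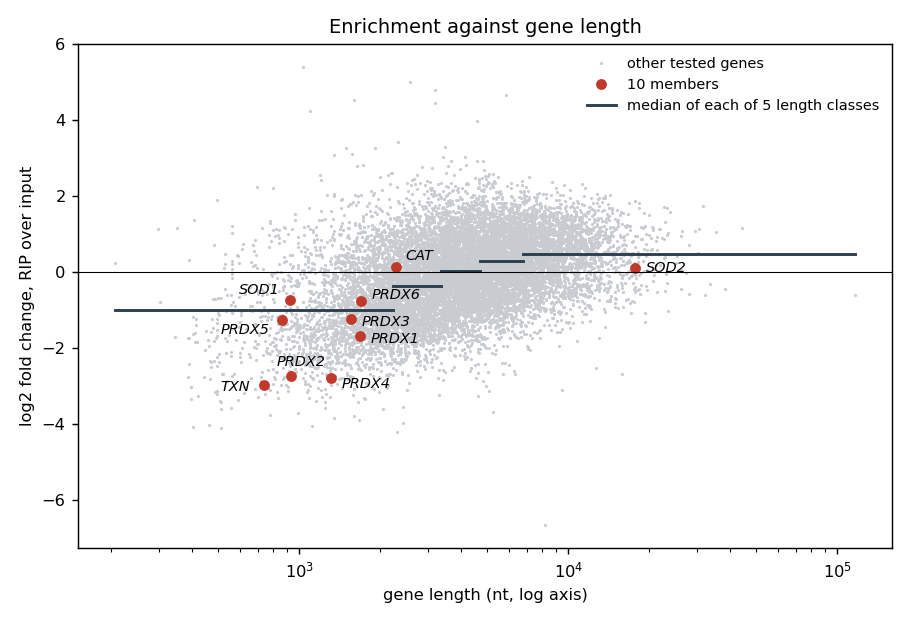
Log2 fold change of RIP over input against gene length (log axis) for 12856 tested genes (grey), with the 10 members in red and a dark bar at the median of each of 5 equal classes of genes by length. The bars rise from -0.98 to 0.49, and *TXN*, *PRDX2* and *PRDX4* lie far below the bar of the shortest class.

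When the trend of enrichment with length was removed, the group divided differently. *PRDX4* (-1.71), *TXN* (-1.48), *PRDX2* (-1.42), *PRDX1* (-0.85) and *PRDX3* (-0.31) kept a negative log2 fold change and the call, with edgeR adjusted p between 2.69e-18 and 9.63e-07. *PRDX5* (0.14) and *PRDX6* (0.079) no longer passed the test (adjusted p = 0.0712 and 0.0768). *SOD1* turned to 0.61 and *CAT* reached 0.67, both called enriched (adjusted p = 4.93e-12 and 3.00e-11), and *SOD2* turned to -0.44 and was called depleted (adjusted p = 1.20e-10). In that fit 6 of the 10 were depleted and 2 enriched, where 40.0% and 40.2% of the tested genes were. Their median was -0.37. The value for *SOD2* rests on its long deposited length. On this scale 2.56% of the tested genes lay below *PRDX4*, 4.65% below *TXN* and 5.41% below *PRDX2*.

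**Figure D3:**
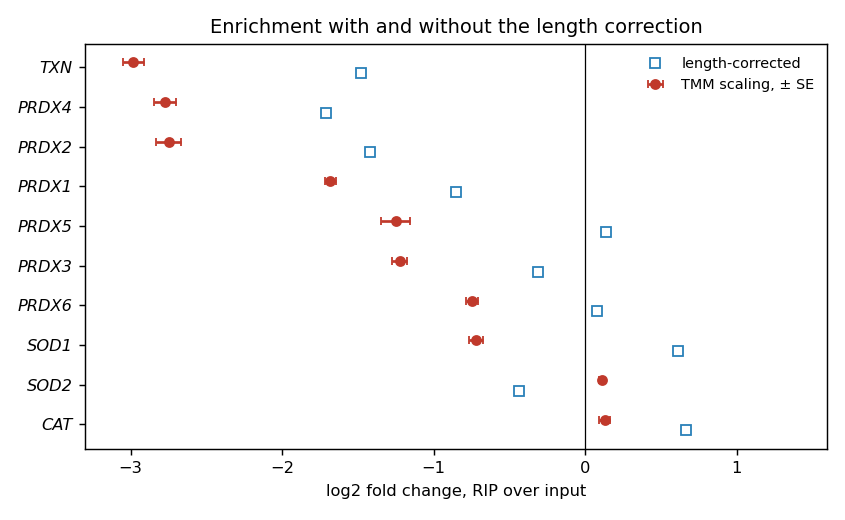
Log2 fold change of RIP over input for the 10 mRNAs with TMM scaling (red circles, bars are SE over 3 libraries a group) and after removal of the length trend (open blue squares). *TXN* moves from -2.98 to -1.48, *SOD1* from -0.72 to 0.61 and *SOD2* from 0.11 to -0.44.

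Because levels can be compared between genes only per length, the order within the group was read from FPKM. These are levels in bulk RNA, in which fewer cells holding a transcript and less of it per cell cannot be told apart. In RIP, *PRDX1* was highest at 87.5 ± 1.21 FPKM (SD, n = 3), followed by *SOD1* at 81.1 ± 4.06, *PRDX6* at 68.4 ± 2.84, *PRDX3* at 39.4 ± 2.17, *TXN* at 36.5 ± 2.63, *PRDX5* at 20.1 ± 2.32, *CAT* at 19.2 ± 0.404, *PRDX2* at 15.4 ± 1.56, *SOD2* at 14.7 ± 0.122 and *PRDX4* at 12.2 ± 0.610. The library ranges of *PRDX3* and *TXN*, of *PRDX5* and *CAT*, and of *PRDX2* and *SOD2* overlapped, so those neighbours have no order. In input, *TXN* stood at 342 ± 13.6 FPKM and *PRDX1* at 332 ± 16.4, with overlapping ranges, followed by *SOD1* at 158 ± 3.83, *PRDX6* at 136 ± 4.56, *PRDX2* at 122 ± 2.24, *PRDX3* at 109 ± 4.34, *PRDX4* at 98.8 ± 6.10, *PRDX5* at 56.3 ± 1.06, *CAT* at 20.7 ± 0.621 and *SOD2* at 16.1 ± 0.297. *PRDX3* and *PRDX4* overlapped there and the other neighbours did not. *TXN* was thus level with *PRDX1* in input, at a ratio of 1.01 to 1.06, and below it in RIP, at 0.380 to 0.448. The FPKM ratio of *SOD2* to *SOD1* was 0.175 to 0.191 in RIP and 0.0987 to 0.106 in input, and its absolute size depends on the length deposited for *SOD2*.

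**Figure D4:**
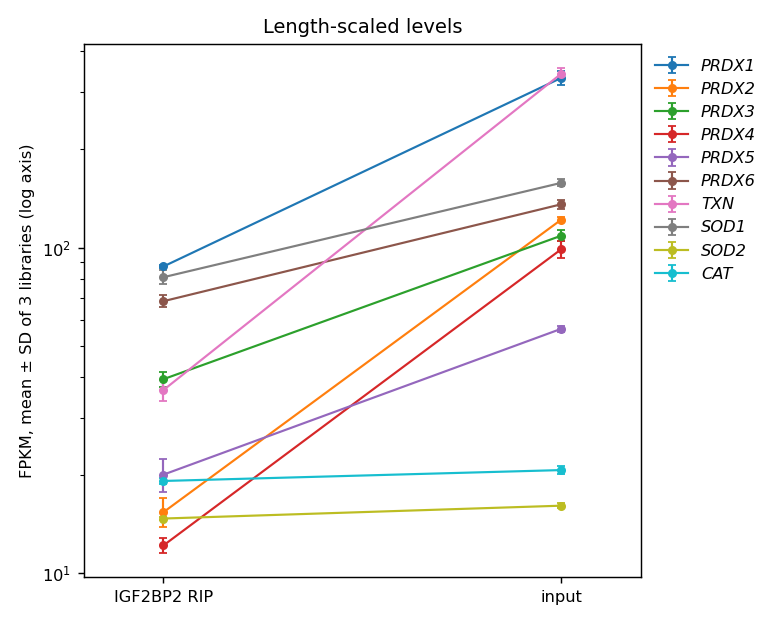
FPKM of the 10 mRNAs (log axis, mean ± SD of 3 libraries) in RIP (left) and input (right), joined by gene. *TXN* crosses below *SOD1* and *PRDX6* on the RIP side, and *SOD2* and *CAT* are nearly flat, at 14.7 and 19.2 FPKM in RIP and 16.1 and 20.7 FPKM in input.

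The 10 genes together took 0.0770% to 0.0789% of the reads of RIP libraries and 0.194% to 0.203% of the reads of inputs. Among the tested genes they ranked between 411 (*PRDX1*) and 3452 (*PRDX4*) by mean FPKM in RIP and between 102 (*TXN*) and 3207 (*SOD2*) in input. The rank of *SOD2* rests on its long deposited length. Without division by length it averaged 262 CPM in input, against 232 CPM for *TXN*. *TXN* ranked 1224 in RIP and *PRDX2* ranked 2860 in RIP and 337 in input.

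The tested gene closest to each member over the 6 libraries was found by the root mean square difference of log2(FPKM + 1). The nearest gene to *PRDX1* was *RPL23A* (84.9 FPKM in RIP and 309.6 in input, difference 0.0774), to *PRDX2* it was *RPS3* (16.5 and 118, difference 0.0797), and to *PRDX4* it was *RPS21* (12.1 and 98.9, difference 0.106), all 3 encoding cytosolic ribosomal proteins. *TXN* was nearest to the histone gene *H2BC4* (39.0 FPKM in RIP and 314 in input, difference 0.139), the least close of the 10 matches. *PRDX5* was nearest to *TSPAN4* (0.0825), *PRDX6* to *ATP5MF* (0.0599), *SOD1* to *SURF4* (0.0818), *SOD2* to *JADE1* (0.0222) and *CAT* to *SLC15A4* (0.0541). No member was the nearest gene of another.

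Among the partners of thioredoxin, *TXN2*, the mitochondrial form, averaged 25.3 ± 0.670 CPM in RIP, against 48.8 ± 1.06 in input, and was 1.93-fold lower (edgeR adjusted p = 3.91e-14), a call that ended with the length correction. *TXNRD1*, the cytosolic reductase that recharges thioredoxin, averaged 412 ± 10.9 CPM in RIP, against 360.1 ± 10.6 in input (log2 fold change 0.20, edgeR adjusted p = 6.47e-05), but with library size alone it stood at -0.045 and did not pass. *TXNRD2*, its mitochondrial counterpart, was 1.90-fold lower in RIP (6.93 ± 0.121 CPM in RIP, against 13.2 ± 0.399 in input). *TXNIP*, which binds and inhibits thioredoxin, was 3.43-fold lower. *SRXN1*, which rescues overoxidised peroxiredoxins, had 7, 7 and 6 reads in RIP and 0, 2 and 0 in input and was not tested. Of the 21 tested genes of the thioredoxin and glutaredoxin system, 8 were enriched and 11 depleted, near the 40.7% and 42.0% of all tested genes, and the median log2 fold change was -0.35. The glutaredoxin *GLRX3* was 4.10-fold lower and the stress-induced sestrin *SESN3* 2.37-fold higher. *TXNDC12*, a thioredoxin domain protein of the endoplasmic reticulum, was 6.14-fold higher, with 975, 899 and 797 reads in RIP and 140, 90 and 123 in input. Its span holds another gene of the table, *KTI12*, which averaged 0.590 CPM in RIP, against 1.30 in input.

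The glutathione peroxidases *GPX4* and *GPX1* were strongly lower in RIP, while *GPX8* was nearly level with input. *GPX4*, which reduces lipid peroxides, averaged 9.36 ± 0.482 CPM in RIP, against 135 ± 6.69 in input, 14.4-fold lower (edgeR adjusted p = 2.89e-25), a larger decrease than in any of the 10 members. *GPX1*, the general cytosolic glutathione peroxidase, averaged 8.25 ± 0.711 CPM in RIP, against 38.0 ± 5.11 in input, 4.62-fold lower (edgeR adjusted p = 7.55e-17). With the length correction the log2 fold changes were -2.805 for *GPX4* and -1.22 for *GPX1*. *GPX8* averaged 50.4 ± 1.70 CPM in RIP, against 55.6 ± 3.87 in input, 1.10-fold lower (edgeR adjusted p = 0.0215). Of 8 glutathione peroxidases 4 could be tested, and 3 were depleted and 1 not called (median -1.23). Over all tested genes 40.7% were enriched and 42.0% depleted. Among 12 tested genes of glutathione synthesis and recycling, 2 were enriched and 6 depleted (median -0.15), the depleted part near that share. *GSS*, glutathione synthetase, was 4.20-fold lower and *GGCT* 4.33-fold lower. *SLC7A11*, the cystine importer, was 1.39-fold higher, a call that ended with the length correction, and *GSR*, glutathione reductase, was 1.12-fold higher with TMM scaling but at -0.081 and not called with library size alone. Glutathione transferases were 2 enriched and 9 depleted of 14 tested (median -1.10), with *GSTO1* 9.84-fold and *MGST2* 5.77-fold lower and *GSTM4* 1.24-fold higher. With the length correction 3 transferases were enriched and 9 depleted, where 40.2% and 40.0% of all tested genes were. Their median was then -0.43. *GSTM4* did not pass with library size alone or with the length correction.

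Partners of the superoxide dismutases were measured next. *SOD3*, the secreted dismutase, averaged 13.0 ± 1.26 CPM in RIP, against 6.63 ± 0.279 in input, and was 1.95-fold higher (edgeR adjusted p = 2.20e-09), and it remained higher with the length correction (1.96 on the log2 scale). *CCS*, the chaperone that loads copper into SOD1, was 2.72-fold lower, at 1.98 ± 0.150 CPM in RIP, against 5.39 ± 0.417 in input, a call that ended with the length correction. *ATOX1*, another copper chaperone, was 3.01-fold lower, *SLC25A28*, a mitochondrial iron carrier, was 2.06-fold lower, and *SLC31A1*, the copper importer, was 1.75-fold higher. Of the 8 genes on this list 4 were enriched and 4 depleted, with a median log2 fold change of 0.18, a division near the 40.7% enriched and 42.0% depleted over all tested genes.

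Among regulators of the antioxidant response, *NFE2L2*, which encodes NRF2, the transcription factor that drives several of these genes, averaged 279 ± 6.40 CPM in RIP, against 155 ± 3.62 in input, and was 1.80-fold higher (edgeR adjusted p = 2.96e-16). With the length correction its log2 fold change fell from 0.85 to 0.34 and kept the call. *KEAP1*, which targets NRF2 for destruction, averaged 14.2 ± 2.06 CPM in RIP, against 29.0 ± 1.04 in input, and was 2.05-fold lower (edgeR adjusted p = 2.14e-11). *BACH1*, a repressor that competes with NRF2, was 1.72-fold higher, while *RBX1*, a subunit of the ubiquitin ligase, was 4.84-fold lower and *DPP3* 2.32-fold lower. In all, 4 of these 11 regulators were enriched, 6 depleted and 1 not called (median -0.28), also near the shares over all tested genes. Enzymes that NRF2 induces or that supply NADPH were 3 enriched and 18 depleted of 23 (median -0.96), against 40.7% and 42.0% of all tested genes. With the length correction 3 of these enzymes were enriched and 15 depleted, where 40.2% and 40.0% of all tested genes were. Their median was then -0.23. The biliverdin reductase *BLVRA* was 5.10-fold and the quinone reductase *NQO2* 3.76-fold lower. With the length correction their log2 fold changes were -1.197 and -1.255, and both kept the call. *PGD*, of the pentose phosphate pathway, was 1.66-fold higher. *NNT*, the mitochondrial transhydrogenase, was 1.21-fold higher with TMM scaling, at 0.034 and not called with library size alone, and at -0.23 with the length correction.

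Genes on the producing side of peroxide and genes of the peroxisome completed the lists. Of 23 NADPH oxidases and other peroxide sources 9 could be tested, and 6 were enriched, 1 depleted and 2 not called (median 0.56). Over all tested genes 40.7% were enriched and 42.0% depleted. *ERO1A*, the oxidase of protein folding in the endoplasmic reticulum, was 2.04-fold higher, at 492 ± 33.9 CPM in RIP, against 241 ± 17.6 in input, and the aldehyde oxidase *AOX1* 1.49-fold higher, while *CYBA*, an oxidase subunit, was 7.12-fold lower. Peroxisome biogenesis genes, which build the organelle that holds catalase, were 4 enriched and 10 depleted of 15 (median -0.41). *PEX26* was 1.84-fold and *PEX19* 1.56-fold higher, and *PEX14* was 2.05-fold lower. With the length correction the log2 fold change of *PEX26* fell from 0.88 to 0.33 and kept the call. Over all 117 tested genes of these 9 lists, 33 were enriched and 68 depleted, where 40.7% and 42.0% of all tested genes were. Their median log2 fold change was -0.45, against -1.24 for the 10 members and -0.02 for all tested genes. With the length correction the median of the members was -0.37. The medians of the 9 lists then ran from -0.67 for glutathione peroxidases to 0.16 for peroxide sources.

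**Figure D5:**
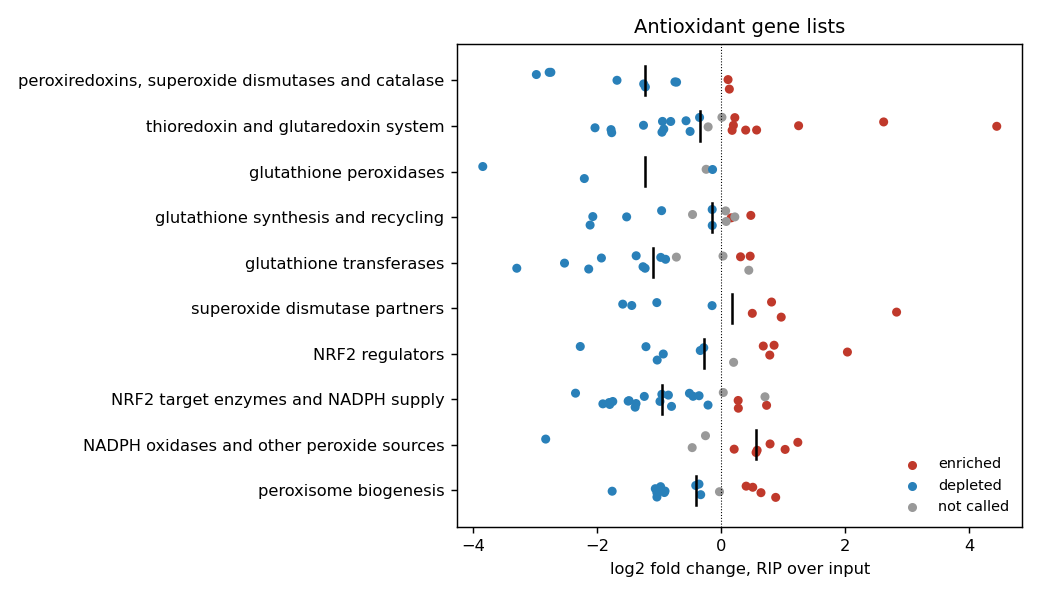
Log2 fold change of RIP over input for each tested gene of 10 antioxidant lists, 1 list per line, coloured by the edgeR call, with a black bar at the list median. The members' line has its median at -1.24, the glutathione peroxidases theirs at -1.23 and the peroxide sources theirs at 0.56. All values are without the length correction.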

How the data were processed

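RIP and input libraries, 3 each, were grouped by their titles. The RNA is given as poly(A) RNA, and per the submitters' processing notes fastp 0.23.2, STAR 2.7.10a, featureCounts and DESeq2 were used with build hg38. The authors deposited a table of unnormalised read counts with 20020 gene symbols. The authors also deposited FPKM values, which equal those counts divided by 1 whole gene length (to within 2.33e-10 nt) and by the column total. That length served as gene length. Genes passing filterByExpr (12856) were scaled with TMM and tested with edgeR 4.0.16 (quasi-likelihood, robust, R 4.3.3), with calls made at a Benjamini-Hochberg adjusted p under 0.05. SEs come from log2 CPM (prior count 2). The length correction used a loess curve (span 0.3) of each library's deviation on log2 length as offsets. Other alternatives used limma 3.58.1 and DESeq2 1.42.0. The common biological coefficient of variation was 4.55%, and replicates differed by more than sampling noise (chi-square per gene 3.42 to 8.35). The members and lists were chosen with earlier results of these data known. Besides the members, *IGF2BP2* and 12 direct partners, the genes named were, per list, up to 2 called genes per direction with the largest change and a mean of at least 5 CPM, and the nearest gene to each member. *MMACHC*, *TRMT112*, *WTAP*, *ACAT2*, *KTI12* and the markers shown were named for overlap or as checks, and *GPX8* for its level. Some genes that this rule names are not reported here.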

Additional observations from a re-analysis of the deposited data

How the results depend on the processing

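The 8 depleted members kept their direction and call under all 18 alternatives without a length correction (144 of 144 values), and the 8 stayed depleted without any 1 library. The results for *SOD2* and *CAT* did not hold as well. *SOD2* was at 0.023 with upper-quartile scaling and did not pass, at -0.13 with library size alone, at -0.12 on log2(FPKM + 1) and at -0.13 on log2(FPKM + 0.1). *CAT* was at 0.043 with upper-quartile scaling and did not pass, at -0.11 with library size alone, at -0.105 on log2(FPKM + 1) and at -0.11 on log2(FPKM + 0.1). Without 1 library *SOD2* ranged over 0.101 to 0.121 and *CAT* over 0.101 to 0.153. The number of enriched members was therefore 0 with upper-quartile scaling, library size alone and both fits on log2 FPKM, and 1 to 2 without 1 library. Both fits on log2 FPKM called all 10 members depleted, and library size alone called 9, all but *CAT*. Tested against a 1.5-fold change, 2973 genes were enriched and 3358 depleted, 0 members and 13 of the other antioxidant genes were enriched, and *SOD2* (0.11) and *CAT* (0.13) did not pass. With the length correction *PRDX5* was at 0.14, *PRDX6* at 0.079, *SOD1* at 0.61 and *SOD2* at -0.44, and with the replicate block added the values were 0.14, 0.078, 0.61 and -0.44. The correction replaces the average gene by genes of like length as the base of comparison, and all FPKM fits are scaled by library totals. Among the other named genes, *TXNRD1* was at -0.045 with library size alone, -0.044 on log2(FPKM + 1), -0.045 on log2(FPKM + 0.1) and -0.012 with the length correction with or without the block, and *GSR* was at -0.081, -0.077 and -0.080 in the first 3 of these. With the length correction *SLC7A11* was at -0.0072 (-0.0058 with the block) and *NNT* at -0.23 in both. A further 20 of the 760 values of these 38 genes kept their direction and lost the call, 7 of them only because the null was a 1.5-fold change. RIP and input libraries of the same number did not deviate together (r = 0.036, -0.046 and 0.035), and the replicate block changed no call among the members, with 8 depleted and 2 enriched. Depth was no limit for the members, but *SRXN1* and other genes with few reads could not be tested.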
